A study of Mus musculus with 4 samples.

Results

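C1qa, C1qb and C1qc encode the A, B and C chains of C1q, and are described here by cell type and library in 4 single-cell RNA libraries of mouse spleen. They are 3 of the 31053 genes in the count tables. They were listed by name because earlier readings of these data had shown them in cells that the submitters named DC/Mac, so their pattern is a description and carries no test. Each library is 1 pool of C57BL/6 spleens. The wild type (WT) was sampled young and at 15 months (aged WT), and the design text describes WT as miR155 fl/fl, that is, carrying the floxed gene. The remaining libraries are from mice of 15 months that lack miR-146a in the whole body (miR-146a knockout), or lack miR-146a and in addition have miR-155 deleted in T cells (double knockout). The driver of the T cell deletion, and the age and pool size of the young mice, are not given here. Aged pools held 3 to 6 mice. The sort kept live CD45+ cells of low scatter, and this gate bears on which myeloid cells could be seen. The comparisons ask what differs in C1q with age, with miR-146a deleted, and when T cells lack miR-155 as well.

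C1q is the recognition molecule of the classical complement pathway. It binds antibody on its target, dying cells and other surfaces, and with the proteases C1r and C1s it starts complement activation. Tissue macrophages and some dendritic cells are its main source, so the 3 transcripts serve as macrophage markers. In the spleen, red pulp macrophages, which clear aged red blood cells and recycle their iron under the control of the transcription factor Spi-C, are among the cells known to express them.

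The 3 genes lie side by side on the minus strand of chromosome 4 (GRCm38) within 18675 bases. C1qb (ENSMUSG00000036905) runs from 136880129 to 136886187, C1qc (ENSMUSG00000036896) from 136889804 to 136893065, and C1qa (ENSMUSG00000036887) from 136895917 to 136898803. The gaps between them are 3616 and 2851 bases. Promoters of 2 of the 3 genes, C1qb and C1qc, were matched in a RefSeq table of build GRCm38.p6 that holds 250 bases before and 50 bases after each start. They were searched because the 3 genes moved together. Each held 1 match, on either strand, to GAGGAA, the core recognised by PU.1, a transcription factor of myeloid cells. The 30 bases around each match are given 5′ to 3′ on the minus strand, with the match in capitals.
C1qb, chr4:136886213-136886242: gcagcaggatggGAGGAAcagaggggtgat
C1qc, chr4:136893090-136893119: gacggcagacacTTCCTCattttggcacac
The match in C1qb begins 30 bases before the start. That in C1qc begins 193 bases before it and reads on the opposite strand. Starts are those of the RefSeq table. The start of C1qc there lies inside the gene bounds given above, which come from another annotation. GAGGAA occurs in 28.3% of the 32851 promoters of the table. Neither promoter held TGCTGAC, a site of Maf factors (4.67% of promoters), or TATAAA, the TATA box (13.6%). A match describes letters in a window and not a bound site.

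The libraries held 7626 barcodes for young WT, 6952 for aged WT, 5702 for the miR-146a knockout and 7297 for the double knockout, with 17561683 to 22399381 UMIs each. A UMI is 1 counted RNA molecule. The submitters had named the type of 6821, 5896, 4832 and 6594 of these cells. DC/Mac, a mixed name for dendritic cells and macrophages, covered 106, 44, 158 and 145 cells, or 453 in all. Pairs of libraries shared 48 to 91 barcode sequences, none of them between DC/Mac cells. With 1 library per group no difference between groups can be tested. Every interval given is at 95% and covers only the error of counting. Mouse, pool and preparation differences are outside it. Intervals of levels take UMIs as independent, so the sampling of few cells rich in C1q is outside them too.

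C1q was highest in DC/Mac cells in 3 of the 4 libraries and was not detected in them in aged WT. Summed over the 3 genes, DC/Mac cells of young WT held 288 UMIs. Those of aged WT held 0, those of the miR-146a knockout 2613 and those of the double knockout 842. As counts per 1000000 UMIs of DC/Mac cells (CPM), the level was 601 in young WT (exact Poisson interval 533 to 674), 3623 for the miR-146a knockout (3485 to 3765) and 1155 for the double knockout (1078 to 1236). The 0 of aged WT allows a level of up to 13.3 CPM, 3 counts over its 225514 DC/Mac UMIs, only if UMIs are independent. In young WT 284 of the 288 UMIs lay in 9 cells, and 1 such cell in aged WT would exceed this limit. The intervals of the 4 libraries do not overlap, but they leave out this sampling of cells. Median depth was alike, at 4473.5, 5215, 4555.5 and 5188 UMIs per DC/Mac cell.

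The 3 chains kept the same order of libraries. C1qa, the A chain, had 109, 0, 855 and 246 UMIs in DC/Mac cells of young WT, aged WT, the miR-146a knockout and the double knockout. C1qb, the B chain, had 91, 0, 1109 and 362. C1qc, the C chain, had 88, 0, 649 and 234. Each was highest in the miR-146a knockout, and none had a UMI in a DC/Mac cell of aged WT. The ratio of the double to the miR-146a knockout was 0.285 for C1qa (conditional binomial interval 0.246 to 0.328), 0.323 for C1qb (0.286 to 0.364) and 0.357 for C1qc (0.306 to 0.415). The balance of the chains in young WT differed from both knockout libraries beyond counting error, while the intervals of the knockout libraries overlap. These intervals also leave out the sampling of few cells rich in C1q. Of the UMIs of C1qa and C1qb together, C1qb made up 45.5% in young WT (exact binomial interval 38.5 to 52.7). It made up 56.5% with miR-146a deleted (54.2 to 58.7), and the double knockout had 59.5% (55.5 to 63.5).

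**Figure D1:**
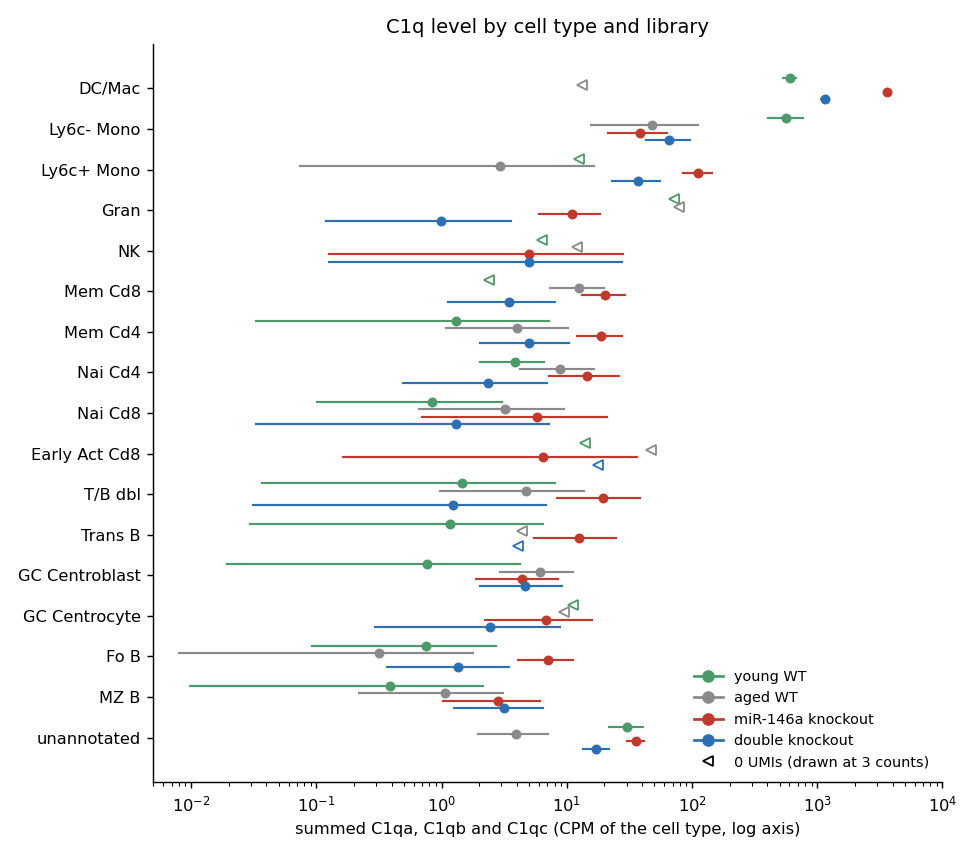
Summed C1qa, C1qb and C1qc in CPM of each cell type (log axis) by library; points are levels, lines are 95% exact Poisson intervals, and open triangles mark types with 0 UMIs, drawn at the level that 3 counts would give. DC/Mac cells reach 3623 CPM in the miR-146a knockout and hold 0 UMIs in aged WT, and the only other type above 200 CPM is Ly6c- Mono of young WT.

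A DC/Mac cell was called C1q-positive when it held at least 3 UMIs over the 3 genes. There were 9 such cells among 106 in young WT, 8.49% (exact binomial interval 3.96 to 15.5). In aged WT there were 0 among 44, 0% (0 to 8.04). The miR-146a knockout had 64 among 158, 40.5% (32.8 to 48.6), and the double knockout 18 among 145, 12.4% (7.53 to 18.9). The share was highest in the miR-146a knockout, and those of young WT, aged WT and the double knockout overlap within counting error. Of all annotated cells, C1q-positive DC/Mac cells were 0.132%, 0%, 1.32% and 0.273%. Thinning each cell to 1000 UMIs gave 7 of 106, 0 of 44, 50 of 150 (33.3%) and 13 of 145 (8.97%) of DC/Mac cells, which is the same order of the 3 libraries with positive cells.

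The share of cells with any C1q UMI was 11.3%, 0%, 43.0% and 13.8% in DC/Mac cells. In B cells, which do not make C1q, it was 0.151%, 0.161%, 1.58% and 0.510%, at median depths of 1940.5, 1928, 2729 and 2111.5 UMIs. In T cells it was 0.310%, 0.513%, 2.51% and 0.480%. The shares in B and T cells were thus also highest in the miR-146a knockout, and stand for background here.

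Folds against the 0 of aged WT were computed with 3 counts there. They are not minimums, since they leave out the sampling of few cells rich in C1q. Aged WT against young WT, the C1q level in DC/Mac cells was 45.2-fold lower on this basis. The share of positive cells was 1.25-fold lower with overlapping intervals, so that 44 cells leave little room to tell the shares apart. DC/Mac cells were themselves fewer, with a ratio of 0.480 in their share of annotated cells (Katz interval 0.338 to 0.681). The miR-146a knockout against aged WT had a C1q level 272-fold higher in DC/Mac cells and a positive share 5.94-fold higher. Its DC/Mac share of annotated cells was 4.38 times as large (3.14 to 6.11). The double knockout against aged WT had a level 86.8-fold higher. Its positive share was 1.82-fold higher, and the intervals of those shares overlap.

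Against the miR-146a knockout, the double knockout had a ratio of 0.319 in C1q level (0.295 to 0.345) and of 0.306 in the positive share (0.191 to 0.491). Within C1q-positive cells alone the ratio of the level was 0.923 (0.853 to 0.999), from 9762 and 10572 CPM. The share of positive cells thus differed beyond counting error about as much as the level over all DC/Mac cells, and the level in positive cells differed little. Relative to all annotated cells, positive DC/Mac cells had a ratio of 0.206 (0.122 to 0.347).

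Most other DC/Mac cells held no C1q UMI, while C1q-positive cells spread from near the threshold upward in each library where they occurred. Their C1q UMIs ran from 5 to 67 with a median of 35 in young WT, from 4 to 149 with a median of 27 in the miR-146a knockout, and from 3 to 141 with a median of 42 in the double knockout. In the median positive cell, C1q made up 0.791%, 1.09% and 0.853% of all UMIs. All 3 chains were detected in 8 of 9, 61 of 64 and 15 of 18 positive cells. Just below the threshold, 3, 4 and 2 DC/Mac cells held 1 or 2 C1q UMIs. Just at it was 1 cell of the double knockout with exactly 3.

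**Figure D2:**
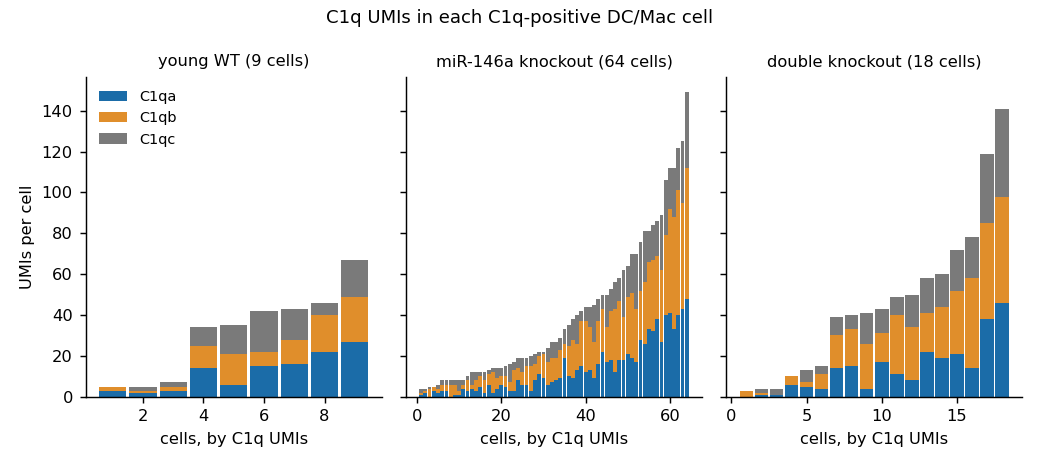
UMIs of C1qa, C1qb and C1qc in each of the 9, 64 and 18 C1q-positive DC/Mac cells of young WT, the miR-146a knockout and the double knockout, ordered by their sum (aged WT has none). Most cells hold all 3 transcripts, and the sum runs up to 67, 149 and 141 UMIs.

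Outside DC/Mac, the order of the types rested on few cells. In young WT, Ly6c- Mono, the submitters' name for non-classical monocytes, had 564 CPM (403 to 768), which overlaps the DC/Mac level. Of its 40 C1q UMIs, 39 came from 2 of 27 cells. In the other libraries this type had 47.9, 38.2 and 65.6 CPM, and these 3 intervals overlap one another. Ly6c+ Mono, the classical monocytes, had 0, 2.94, 112 and 36.7 CPM in young WT, aged WT, the miR-146a knockout and the double knockout. In the miR-146a knockout 5 cells held 53 of the 56 UMIs. The chains were uneven there, with 5 UMIs of C1qa, 40 of C1qb and 11 of C1qc, so that C1qb made up 88.9% of C1qa and C1qb together (75.9 to 96.3) against 56.5% in DC/Mac cells of that library. The same type in the double knockout had 0, 19 and 3 UMIs of the 3 chains. Granulocytes had 11.0 CPM in the miR-146a knockout, 0.995 in the double knockout and 0 in the WT libraries. The 37 granulocytes of young WT and 16 of aged WT allow up to 88.7 and 96.5 CPM, so they cannot be told apart from the knockouts. T cells had 2.00, 7.67, 16.7 and 3.17 CPM and B cells 0.652, 1.63, 5.67 and 2.48 CPM.

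In aged WT, C1q was found in single cells of other types. The library held 58 C1q UMIs in annotated cells, and 42 of them lay in 5 cells named GC Centroblast, Ly6c- Mono, Mem Cd8, Nai Cd4 and T/B dbl. All 5 also held UMIs of red pulp macrophage markers, as did 21.5% of all T cells, 3.90% of B cells and 81.8% of Ly6c- Mono in aged WT. The 4 named as B or T cells or as doublets of them held 12 to 28 UMIs of B or T cell markers of their own type. Other libraries had such cells too. Outside DC/Mac there were 3 cells with at least 3 C1q UMIs in young WT, 18 for the miR-146a knockout and 7 for the double knockout. Of these, 3, 12 and 7 held red pulp macrophage marker UMIs. So did 4.41%, 40.2% and 27.6% of all T cells and 96.3%, 89.2% and 90.3% of Ly6c- Mono in these libraries. Counting all annotated types, positive cells were 12, 5, 82 and 25, or 0.176%, 0.0848%, 1.70% and 0.379% of annotated cells. The ratio of the double to the miR-146a knockout on that count was 0.223 (0.143 to 0.349), and that of the miR-146a knockout to aged WT was 20.01 (8.12 to 49.3).

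The other genes of C1q-positive DC/Mac cells were read within each library, by setting the summed UMIs of positive cells against those of the other DC/Mac cells as a log2 ratio with 50 CPM added to both. Young WT, the miR-146a knockout and the double knockout had at least 5 cells on each side. Of 9347 genes with at least 10 UMIs, 47 were at least 2-fold higher in all 3 libraries (0.503%) and 40 at least 2-fold lower in all 3 (0.428%). All 3 C1q genes are among the 47, since they chose the cells. The cells were chosen by C1q, so these genes describe them and test nothing.

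Among the genes past 2-fold in all 3 libraries, the largest mean log2 ratio after C1q was that of Fcgr4, which encodes an activating receptor for IgG. In the same order of libraries, its level in positive cells was 277, 2190 and 2094 CPM, against 11.3, 21.1 and 14.0 in other DC/Mac cells. It was found in 55 of 64 and 16 of 18 positive cells of the knockout libraries, but in 2 of 9 in young WT, where 1 cell held 9 of its 10 UMIs. Ly6c- Mono of the same 3 libraries also held Fcgr4, at 832, 728 and 763 CPM. Among transcription factors, Nr1h3, which encodes the lipid-sensing nuclear receptor LXR alpha, had 166, 430 and 337 CPM against 2.26, 19.0 and 9.33. Spic, which encodes Spi-C, had 277, 105 and 302 CPM against 18.0, 16.9 and 28.0. Maf had 166, 130 and 93.1 CPM against 0, 2.11 and 4.66. Tcf7l2 and Pou2f2 completed the transcription factors named, with mean log2 ratios of 2.16 and 2.09.

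Receptors and surface proteins made up much of the rest. Csf1r, the receptor for macrophage colony-stimulating factor, had 583, 547 and 314 CPM in positive cells of young WT, the miR-146a knockout and the double knockout, against 74.4, 99.0 and 82.4 in other DC/Mac cells. Axl, a receptor used in the uptake of dying cells, had 361, 182 and 93.1 CPM against 11.3, 4.21 and 14.0. Ms4a7, Clec4a3, Cd81, Cd300e, Pilra, Pilrb2, Siglece and Cadm1 had mean log2 ratios from 1.73 to 2.31. Aif1, an actin-binding protein of macrophages, had a mean of 2.56, and Lst1 of 1.90. Genes for metal and haem binding were Hebp1 (2.35), Mt1 (1.94) and Slc11a1 (1.93), a metal transporter of phagosomes. Serpinb6a, a protease inhibitor, had 2.00 and AW112010, an interferon-inducible transcript, 1.95. The T cell receptor subunit gene Cd3g was also among them, with 305, 531 and 163 CPM against 38.4, 10.5 and 9.33.

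Of the genes lower in positive cells, the 8 with the lowest mean log2 ratio were Ifitm1 (-3.32), Plac8 (-3.30), Ly6d (-2.78), Klrd1 (-2.72), Cd7 (-2.66), Ly6c2 (-2.63), Rnase6 (-2.63) and Tcf4 (-2.47), a transcription factor of plasmacytoid dendritic cells. Ifitm1 had 0, 1 and 1 UMIs in the positive cells of the 3 libraries, which is 0, 4.06 and 11.6 CPM, against 102, 1064 and 931 CPM in the other DC/Mac cells. In young WT Ifitm1 was only 1.22-fold lower with the 0 set at 3 counts. Plac8 had 0, 36 and 99 UMIs.

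**Figure D3:**
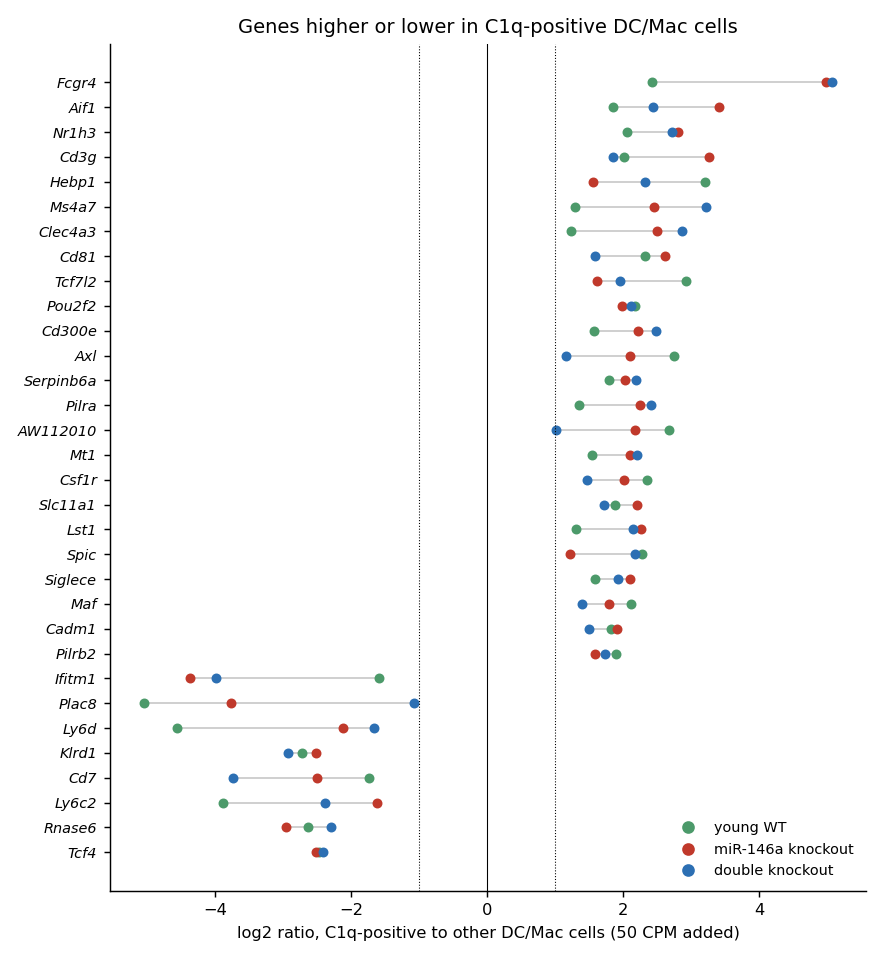
Log2 ratio of C1q-positive to other DC/Mac cells, with 50 CPM added to both sides, for 24 genes at least 2-fold higher and 8 at least 2-fold lower in each of young WT, the miR-146a knockout and the double knockout; each point is 1 library, and dotted lines mark 2-fold. Fcgr4 is lower in young WT, at 2.42, than in the knockout libraries, at 4.98 and 5.07.

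Gene lists were described by their counts and median mean log2 ratio, beside a median of -0.09 over all 9347 genes. Of 14 red pulp macrophage markers 12 were measured, 4 were at least 2-fold higher in all 3 libraries (Spic, Axl, Csf1r and Maf) and none lower, with a median of 1.82. Their summed level was 5881, 1942 and 1443 CPM in positive cells of young WT, the miR-146a knockout and the double knockout. Other DC/Mac cells of the 4 libraries had 146 to 398 CPM. Ly6c- Mono had 1945, 1668 and 1539 CPM in the same 3 libraries and 1686 CPM in aged WT. In the knockout libraries the level of this list was thus not particular to C1q-positive cells. Cd163 was at 0 in positive cells of all 3 libraries. Several defining members differed between libraries. Vcam1, an adhesion molecule of red pulp macrophages, had 1137, 122 and 23.3 CPM in positive cells, with log2 ratios of 4.33, 1.72 and 0.51. Slc40a1, the iron exporter ferroportin, had 860, 32.4 and 93.1 CPM. Hmox1, the haem-degrading enzyme, had 1137, 426 and 291 CPM. All of these were highest in young WT, whose 9 cells also held the highest Apoe, at 2413 CPM against 426 and 617, an apolipoprotein of lipid-laden macrophages. Of 3 measured marginal zone macrophage markers, Nr1h3 was higher and Cd209a lower, with a median of 0.68. Their list summed to 361 to 438 CPM in positive cells and 132 to 411 in other DC/Mac cells, with Siglec1 at 0 in both.

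Of 12 genes of haem and iron handling 11 were measured, and 5 were higher in all 3 libraries (Blvra, Blvrb, Fth1, Slc11a1 and Spic), with a median of 1.49. Fth1, the ferritin heavy chain, had 9571, 12275 and 8249 CPM in positive cells against 4401, 4073 and 3682. The haem and iron list summed to 31957, 23645 and 20327 CPM in positive cells, against 8726, 9656 and 8272 in other DC/Mac cells. Ly6c- Mono of the same libraries had 14079, 18741 and 15302 CPM. Of 20 lysosome and cathepsin genes 19 were measured and 1 was higher, Ctsb, with a list median of 0.63. Of 14 macrophage transcription factors all were measured, 4 were higher, Maf, Spic and Nr1h3 among them, and 1 lower (Irf8), with a median of 0.63. Spi1, the gene of PU.1, had a mean log2 ratio of 0.02.

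The rest of the complement system was hardly seen in these cells. Of 24 other complement components and regulators 5 were measured, none passed 2-fold in all 3 libraries, and the median was 0.12. C1s1, a protease partner of C1q, had 0 UMIs in all DC/Mac cells read here, and C1ra had 1. Cfp, which encodes properdin of the alternative pathway, was the highest at 0.88, with 888, 365 and 337 CPM against 228, 249 and 239. C3 had 0, 5 and 5 UMIs in positive cells. Of 15 complement receptors and C1q-binding proteins 11 were measured, none passed in either direction, and the median was 0.18, from Lrp1 at 0.55 to Cd93 at -0.17.

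The lists of dendritic cells differed in how they stood in positive cells. Of 8 plasmacytoid markers 6 were lower in all 3 libraries, with a median of -2.20, and Siglech had 0 UMIs in all 91 positive cells. Of 6 pan-dendritic markers 2 were lower (Flt3 and Kmo), with Zbtb46 at 0 in each positive set. The lists of conventional dendritic cells had medians near that of all genes. Of 8 cDC1 markers 1 was higher (Cadm1) and 1 lower (Irf8), with a median of 0.05. Their summed level was nevertheless lower in positive cells of young WT, the miR-146a knockout and the double knockout. It was 943, 795 and 652 CPM, against 1586, 976 and 1182 CPM in other DC/Mac cells. Of 8 cDC2 markers 1 was lower (Cd209a), with a median of -0.21, and their summed level of 422 to 777 CPM in positive cells overlapped the 491 to 905 CPM of other DC/Mac cells. MHC class II genes had a median of -1.06, and 1 of 10 was lower in all 3 libraries (H2-Oa). H2-Ab1 had log2 ratios of -0.15 for young WT, -2.87 for the miR-146a knockout and -0.39 for the double knockout. In the median positive cell, MHC class II genes had 30, 5 and 4.5 UMIs, against 279, 145.5 and 172 in other DC/Mac cells of the same libraries. Of 9 non-classical monocyte markers 2 were higher (Pou2f2 and Cd300e), while Ace was at 0 in each positive set. In young WT, the miR-146a knockout and the double knockout this list summed to 1082, 937 and 1361 CPM in positive cells. Other DC/Mac cells had 399, 316 and 339 CPM, and Ly6c- Mono 4031, 5077 and 4696 CPM. Of 6 classical monocyte markers 2 were lower, Ly6c2 among them.

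Lists of miR-146a targets, NF-kB and interferon responses had few or no members past 2-fold in all 3 libraries, where 0.503% of all genes were higher and 0.428% lower, so lists of this size say little either way. Of 9 measured genes that are miR-146a targets in the literature, none passed in all 3 libraries, with a median of -0.05. Of 15 NF-kB response genes none passed, with a median of -0.03. Of 16 type I interferon response genes 1 was lower (Bst2, also a plasmacytoid marker), and of 14 interferon gamma response genes none passed, with medians of 0.11 and 0.28.

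**Figure D4:**
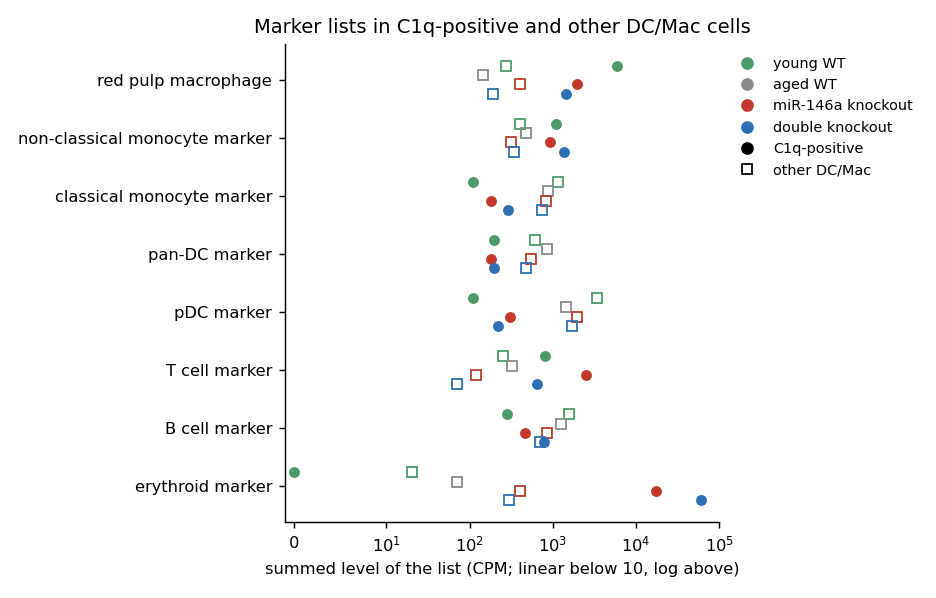
Summed level of 8 marker lists in C1q-positive (filled circles) and other (open squares) DC/Mac cells by library, in CPM on an axis that is linear below 10 and logarithmic above. Red pulp macrophage, non-classical monocyte and T cell markers lie higher in positive cells. Plasmacytoid, pan-dendritic and classical monocyte markers lie lower in them. Erythroid markers in positive cells run from 0 in young WT to 60201 CPM in the double knockout.

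Markers of T cells moved with C1q. Of 8 T cell markers 3 were higher in all 3 libraries (Cd3e, Cd3g and Trac), with a median of 1.54. Their summed level was 804, 2506 and 640 CPM in positive cells of young WT, the miR-146a knockout and the double knockout, against 70.0 to 319 CPM in other DC/Mac cells of the 4 libraries. No T cell marker was at 0 in the miR-146a knockout, and Bcl11b was at 0 in positive cells of the other two. At least 2 T cell marker UMIs were held by 3 of 9, 34 of 64 and 5 of 18 positive cells, against 14 of 97, 8 of 94 and 5 of 127 other DC/Mac cells. In the miR-146a knockout, C1q was 6429 CPM in the 34 positive cells with such UMIs and 15408 CPM in the 30 without. The sums of the other libraries did not show this difference, with 8356 against 7608 CPM in young WT and 9280 against 9925 CPM for the double knockout. Their groups with such UMIs were only 3 and 5 cells. In these groups 1 cell held 67 of 109 and 141 of 202 C1q UMIs, so both levels rest largely on 1 cell.

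C1q without those cells kept its order. With every DC/Mac cell that held at least 2 T cell marker UMIs left out, a choice made after seeing the data, 6 of 89 DC/Mac cells of young WT, 0 of 39 of aged WT, 30 of 116 of the miR-146a knockout and 13 of 135 of the double knockout were positive. These shares are 6.74%, 0%, 25.9% and 9.63%. Of the 25 genes named as higher, 23 still passed in all 3 libraries. The exceptions were Cd3g, at a mean of 0.47, and Maf, at 1.40. With every DC/Mac cell of at least 2 B or T cell marker UMIs left out, 19 of the 25 passed, but young WT then had only 3 positive cells, below the minimum of 5 used elsewhere.

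Haemoglobin was high in the positive cells of the knockout libraries only through few cells. It had 17190 CPM for the miR-146a and 59630 for the double knockout, against 0 in young WT, and 18.0 to 221 CPM in other DC/Mac cells. A single cell held 3942 of 4239 haemoglobin UMIs in the first and 5096 of 5125 in the second, and the median positive cell had 0. At least 10 haemoglobin UMIs were found in 4 of 64 and 2 of 18 positive cells, against 3 of 94 and 2 of 127 other DC/Mac cells. Their part in the C1q results was not tested.

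Both knockout libraries were also compared within C1q-positive cells, 18 of the double against 64 of the miR-146a knockout, where 4042 genes were measured. At least 2-fold higher were 60 genes (1.48%) and lower 131 (3.24%), and none of the 3 C1q genes was among either, with log2 ratios from -0.27 for C1qa to 0.05 for C1qc. MHC class II genes stood out by sum, with 6 of 9 measured higher and a median of 2.04 against -0.04 over all genes. H2-Ab1 had 6551 against 1127 CPM, a ratio of 5.81 (5.02 to 6.73), H2-Aa one of 5.28 (4.53 to 6.16) and Cd74, the invariant chain, one of 4.38 (4.02 to 4.76). The sums rested on a minority of cells: the median positive cell had 4.5 against 5 MHC class II UMIs, and at least 20 such UMIs were found in 8 of 18 against 15 of 64 positive cells. By sum, markers of other cells stood higher too, with 7 of 7 erythroid markers (median 1.57) and 2 of 6 B cell markers. The latter were Cd79a at a ratio of 4.10 and Fcmr at 3.39. These sums rested on few cells. A single cell held 5096 of 5125 haemoglobin UMIs in the double and 3942 of 4239 in the miR-146a knockout. In the double knockout 1 cell held 45 of 68 B cell marker UMIs, and 1 cell held 10 of 13 Fcmr UMIs. B cells also carry MHC class II. Positive cells with under 2 T and under 2 B cell marker UMIs numbered 10 in the double and 23 in the miR-146a knockout. In them MHC class II genes had 46166 against 14708 CPM, with a median of 162 against 6 UMIs. At least 20 such UMIs were found in 5 of these 10 against 7 of these 23 cells. The part of B cells in the result was not tested. Plac8 had a ratio of 7.89 (5.34 to 11.9), and 92 of its 99 UMIs lay in 1 cell, without which its log2 ratio was -0.52.

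Lower in the double knockout were T cell markers and the genes that follow. Ccl5, a chemokine gene, had 2 against 742 UMIs, a fold of 129 (35.7 to 1070), and 733 of the 742 lay in the 34 cells with T cell marker UMIs. Cd8b1 had 0 against 57 UMIs, 6.62-fold lower with the 0 set at 3 counts. Nkg7 had 3 against 91, 10.6-fold lower (3.50 to 52.2). Of 8 T cell markers 7 were lower, with a median of -1.54. With the T-marked cells left out, Ccl5 had 2 UMIs in the double knockout and 9 in the miR-146a knockout, and the log2 ratio of Nkg7 turned to 0.47. Rarres1 did not follow the T cell markers. It had 46 UMIs in 24 of the 64 positive cells of the miR-146a knockout. Of these UMIs 23 lay in cells with and 23 in cells without T cell marker UMIs. Positive cells of the double knockout had 0, 5.34-fold lower with the 0 set at 3 counts. Rarres1 was also at 0 in positive cells of young WT and in other DC/Mac cells of every library. Red pulp macrophage markers had a median of -0.48, with Spic higher and Vcam1 lower among 11 measured.

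The genes whose levels were most like that of C1q were ranked by Pearson correlation of log2(CPM + 10) over 62 sums of a cell type in a library with at least 20 cells. These points share libraries and depth, so the values are a description. The correlation with the C1q sum was highest for Hebp1 (0.93), Nr1h3 (0.85), Cadm1 (0.83) and Cd5l (0.82), and among the 10 highest were also Sdc3, Prune2, Klra17, Fcgr4 and Mt1 (0.79 to 0.76), against a median of -0.02 over 11843 genes. Of the UMIs of these 10 genes in annotated cells, 37.8% (Mt1) to 80.6% (Klra17) lay in DC/Mac cells, compared with 88.6% for C1qb, 90.5% for C1qa and 91.9% for C1qc. Fcgr4, unlike C1q, reached 832 CPM in Ly6c- Mono of young WT, above its highest DC/Mac level of 763. In Ly6c- Mono of aged WT, the miR-146a knockout and the double knockout it had 450, 728 and 763 CPM.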

How the data were processed

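The authors deposited raw UMI counts per gene and barcode for 4 droplet libraries, made with Cell Ranger 3.0.0 on mm10 per the submitters' processing notes. The protocol text names both 3′ and 5′ chemistry. Names of cell types, 16 in all, were deposited for part of the barcodes. How the names were given is not stated in the sources used here. Deposited values were used as counts, with no per-cell normalisation. Counts were summed over cells of a type and library and divided by the UMIs of those cells to give CPM. T cells were the 5 types with Cd4 or Cd8 in their name, and B cells were follicular, marginal zone, transitional and germinal centre types.

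A gene was counted as higher or lower past 2-fold in each of the 3 libraries with at least 5 C1q-positive and 5 other DC/Mac cells, with 50 CPM added. This is a statement of size, not a test. The 25 genes with the highest and 8 with the lowest mean log2 ratio were named, with up to 4 defining members per list. Between libraries the 4 per direction with the interval bound nearest 1 farthest from it were named, with at least 20 UMIs in the higher library. The 10 most correlated genes were named too. Genes of immunoglobulins, T cell receptors, haemoglobin, mitochondria and ribosomal proteins, Xist, Tsix, Y-linked genes and clone names were not named. Trac and the other members behind counts of 5 or fewer, and Apoe, were named after their values were seen. Of the genes these rules name, 2 are not reported here, and 1 of them is left out of the plot of single genes. The gene set, the lists and the thresholds were chosen with earlier results of these data known. No doublet caller was run. Cells with at least 2 B or T cell marker UMIs were left out as an alternative. Fold changes against 0 UMIs use 3 counts for the sum over the group. They leave out the counting error of the other side and the sampling of cells, and are not minimums. The calls of genes between positive and other cells, and between libraries, were tested on simulated sums without differences between cells. The correlation step was tested with a copied gene. Other steps were not tested in this way. Work was done with Python 3.11.15, numpy 2.4.6, scipy 1.17.1, pandas 2.3.3 and matplotlib 3.10.9, and size factors came from edgeR 4.0.16 and DESeq2 1.42.0.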

Additional observations from a re-analysis of the deposited data

Results flagged for a closer look

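C1q was also found in barcodes without a cell type name, which no comparison above uses. Its level there was 30.2 CPM in young WT, 35.5 CPM in the miR-146a knockout and 17.2 CPM in the double knockout, each above the 3.93 CPM of aged WT. The excess over aged WT is what drew attention to these values. They came from 43, 170 and 71 C1q UMIs in 805, 870 and 703 barcodes, and aged WT had 11 in 1056. Barcodes with at least 3 C1q UMIs numbered 5, 9 and 7, against 1 in aged WT. Of these, 5, 9 and 6 also held UMIs of red pulp macrophage markers, as did 46, 234 and 176 of all barcodes without a name. Most of the barcodes with at least 3 C1q UMIs had a mitochondrial share of at least 5%, in 4, 5 and 5 of them. More than 9000 UMIs were found in 1, 4 and 2. With these barcodes the miR-146a knockout still had the most C1q-positive barcodes and aged WT the fewest.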

How the results depend on the processing

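No paired analysis was possible because each group has 1 library and the labels give no replicate numbers. Precision is limited by 1 library per group, and by the 44 DC/Mac cells of aged WT and the 9 positive cells of young WT. Leaving out cells with T cell marker UMIs, counting all barcodes, and leaving out the 1 cell with most UMIs of a gene were chosen after seeing the data. In young WT, the miR-146a knockout and the double knockout the C1q level in DC/Mac cells was 344, 3452 and 935 CPM without possible doublets, 462, 3243 and 946 CPM without T-marked cells, and 826, 5035 and 1600 CPM when immunoglobulin, haemoglobin, mitochondrial and ribosomal protein genes were kept out of the totals. The order of the libraries was the same in each. The log2 ratio of the double to the miR-146a knockout, -1.65, became -1.88 without doublets and -1.78 without T-marked cells. The positive share of the miR-146a knockout became 26.7% of DC/Mac without doublets and 25.9% without T-marked cells, and 0.626% of annotated cells without T-marked cells. C1q-positive barcodes of any type or none were 0.0863% of all barcodes in aged WT and 0.439% in the double knockout. Genes higher and lower in positive cells numbered 114 and 208 with 10 CPM added, and 11 and 9 with 200 CPM. Lower genes were 16 for cells with at least 1 C1q UMI, 97 after thinning, 68 without doublets and 66 without T-marked cells. With 1 library left out, 66 to 107 genes were higher and 63 to 78 lower, the most without young WT, since fewer libraries had to pass, and all 47 and 40 were among them. Without T-marked cells the T cell marker median turned to -0.17. Between the double and the miR-146a knockout, 26 genes were higher and 72 lower at a minimum of 30 UMIs. Nkg7 turned to 0.79 without doublets and 0.47 without T-marked cells, and Plac8 to -0.52 without 1 cell. Of the 10 genes most like C1q, 5 stayed in the top 10 with 1 CPM added and 3 with types of at least 50 cells. Barcodes without a type that held at least 1 C1q UMI were 11, 7, 42 and 17 in the 4 libraries, and at least 5 UMIs were held by 0 in aged WT and 5 in the miR-146a knockout. The cause of these shifts was not tested except where stated. The means of the 33 named genes kept their direction in all 429 recomputations, but many of these could not have reversed it. The genes were chosen for passing 2-fold in the same direction in all 3 libraries. Changing the added CPM, changing the minimum of UMIs or leaving out 1 library therefore could not turn a mean. Of the 429 recomputed means, 80 moved beyond the spread between libraries.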
